A study of Mus musculus with 24 samples.

Results

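The comparison asked what an antibody to CTLA-4 added to entinostat in the expression of immune genes in mouse mammary tumours: 4 samples given entinostat and anti-CTLA-4 (ENT+CTLA4, replicates 1, 2, 5 and 6) were set against 4 given entinostat alone (ENT, replicates 1 to 4). Members were chosen by sample title, and they are 8 of the 24 samples of the series. All mice were female FVB neu-N animals, aged 7 to 8 weeks at implantation of 50000 NT2.5 cells into the mammary fat pad. NT2.5 is a line grown from a spontaneous mammary tumour of this model, so every tumour of the series came from the same line. Treatment began 3 days after implantation and ran for 3 weeks. Both groups received entinostat at 5 mg/kg by daily gavage in 0.5% methylcellulose, and ENT+CTLA4 mice also received anti-CTLA-4 (clone 9H-10) at 100 µg per mouse into the peritoneum on 2 days of each week. Vehicle mice received methylcellulose with isotype antibodies. Whether ENT mice received isotypes is not stated. Further groups used here for reference were vehicle (4 samples), ENT+PD1 (entinostat with anti-PD-1, 4), ENT+PD1+CTLA4 (all 3 agents, 4) and ENT+CTLA4+HER2 (with anti-HER2, 2), antibodies again at 100 µg. A further 2 samples carry the titles of ENT+PD1 replicates 1 and 2 a second time and are called the repeat-titled pair. The treatment text says that all studies were run with and without anti-HER2, and only titles were used for grouping. The labels do not say whether samples of a group came from separate mice, so p-values measure the spread between these samples.

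Entinostat inhibits class I histone deacetylases, enzymes that remove acetyl groups from histones and other proteins and thereby restrain transcription. CTLA-4 is a receptor of T cells, abundant on regulatory T cells, that competes with CD28 for the ligands CD80 and CD86 and so limits T cell activation. Antibodies to CTLA-4 block this competition and can also lead Fc receptor-bearing cells to remove CTLA-4-rich regulatory T cells. Myeloid cells, above all neutrophil-like and macrophage-like cells, are abundant in many mammary tumours and can restrain T cells there.

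RNA molecules were counted without amplification on an nCounter instrument with colour-coded probes for 750 endogenous and 20 housekeeping genes. Values below are the deposited ones, in which the housekeeping genes of every sample have a geometric mean of 346.9. Recovered totals ran from 365308 to 444151 counts in ENT and from 346883 to 483412 in ENT+CTLA4 (exact two-sided permutation test over 70 splits, p = 0.83). All ENT samples ran on 1 cartridge, with vehicle and ENT+PD1, and all ENT+CTLA4 samples on another, with the repeat-titled pair and the other anti-CTLA-4 groups. Treatment and cartridge therefore cannot be told apart in this comparison. The 8 negative control probes averaged 8.25 ± 0.87 raw counts (SD, n = 4) in ENT and 5.00 ± 0.71 in ENT+CTLA4, with no overlap (exact two-sided permutation test, p = 0.0286, the smallest that 4 against 4 allows). Multiplied by each sample's factor, to the scale of the deposited values, they were 5.42 to 8.45 and 3.59 to 5.47, with overlap (exact two-sided permutation test, p = 0.0571). The positive controls had geometric means of 669 ± 58.8 and 579 ± 16.7 counts (exact permutation test, p = 0.0857). A sample's background limit is taken below as its negative control mean plus 2 SD.

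The labels name whole tumour as the source, whereas the extraction text ends on single-cell suspensions for isolating immune cells. All 6 epithelial markers (such as Epcam, the epithelial adhesion molecule) lay above the background limit in all 8 samples. So did all 6 markers of macrophages and monocytes, all 3 measured markers of neutrophils, all 5 of endothelium and all 3 of fibroblasts. None of the 6 T cell, 4 B cell or 3 NK cell markers was above it in all 8 samples. The sum of the epithelial markers was 9029 to 9417 in ENT and 8319 to 10559 in ENT+CTLA4. Ptprc, the common leukocyte antigen CD45, was 122 to 171 in ENT and 217 to 430 in ENT+CTLA4, and the groups did not overlap. In RNA from mixed tissue, fewer cells of a type and less RNA per cell cannot be told apart.

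Several genes of neutrophils and inflammatory myeloid cells were higher in each of the 4 ENT+CTLA4 samples than in any ENT sample, with ratios of means of 2.75 for S100a8, 2.26 for Cxcr2, 2.15 for Clec5a and 1.72 for Il1b. Some weak genes of the interferon and NK cell lists, such as Usp18 and Cd160, were lower in each of the 4, close to the background. These 2 differences change sign with the cartridge as a block and keep it with negative controls subtracted. Of the 8 samples, the T cell score, the mean log2 value of the T cell list minus its mean in ENT, was highest in ENT+CTLA4 replicate 6 (1.91). None of these gene differences passed the threshold in the fit over all groups. Of 621 genes tested with limma, 0 had a Benjamini-Hochberg adjusted p under 0.05 (0%), and 94 (15.1%) had an unadjusted p under 0.05, 52 of them higher (8.37%) and 42 lower (6.76%) in ENT+CTLA4. With edgeR on recovered counts 0 genes passed, and with DESeq2 15 (2.42%) did, 12 of them higher (1.93%). These 12 were also its calls among the 389 genes with better measured values (3.08%): Clec5a, Fcgr4, Cxcr2, Il1r2, Csf3r, Ifitm1, Il1b, Mapk14, Nlrp3, Cd69, Tnfaip3 and Il10ra, the last 3 named only for this call. Its 3 lower genes were Usp18, Klra6 and Ifna4. A limma fit on the 8 samples alone called 46 (7.41%), of which 40 were higher (6.44%) and 6 lower (0.966%), and 14 genes were called by both this fit and DESeq2. The median SD of a gene on the log2 scale was 0.20 in ENT and 0.28 in ENT+CTLA4, against 0.42 in ENT+PD1 and 0.38 in ENT+PD1+CTLA4, whose spread also enters the fit over 22 samples. The fit on the 8 samples alone called between 10 (without ENT replicate 1) and 52 genes (without ENT+CTLA4 replicate 2) when a sample was left out, 19 without ENT replicate 4, 17 without ENT+CTLA4 replicate 5 and 30 without ENT replicate 2 or ENT+CTLA4 replicate 6. It called 17 with each sample centred on its median. In the text below "higher" and "lower" state values, and "called" is kept for an adjusted p under 0.05 in the fit named. Differences are on the scale of log2(value + 1), with the SE of the fit over 22 samples.

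Without any test, 79 of the 621 genes (12.7%) had all ENT+CTLA4 samples above all ENT samples, and 35 (5.64%) had all of them below. The higher and lower genes differed in level. Of 389 well measured genes, with a value of at least 50 in at least 4 of the 8 samples, 70 (18%) were higher without overlap and 14 (3.6%) lower. Of the 232 weaker genes, 9 (3.88%) were higher and 21 (9.05%) lower. Among the well measured, 6 genes reached this level through ENT+CTLA4 alone and 0 through ENT alone. The weaker a gene, the nearer it lies to the background, and 9 of the 35 lower genes were within the background limit in at least 3 ENT+CTLA4 samples. The split moves with the scaling: 40 genes were higher and 70 lower when each sample was centred on its median, and 65 higher and 16 lower when samples were scaled to the positive controls. The median difference over all genes was 0.04, and it was −0.16 and 0.18 under these scalings.

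**Figure D1:**
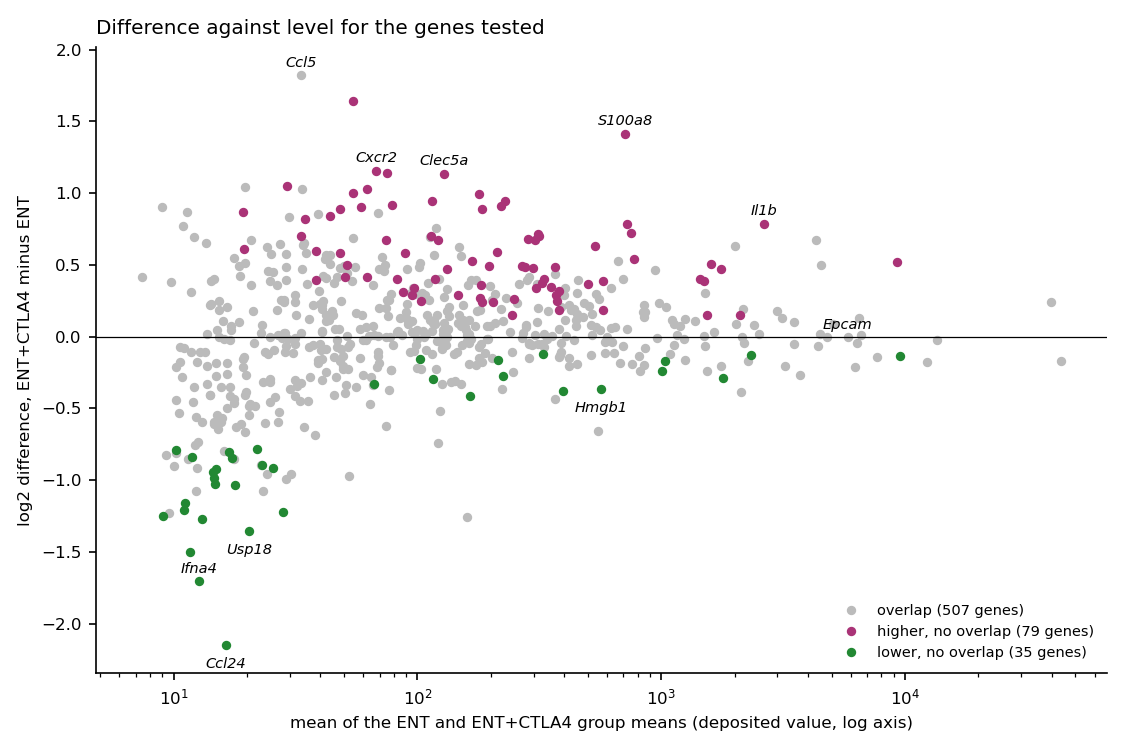
Each point is a gene tested: the x axis is the mean of the group means of ENT and ENT+CTLA4 (deposited value, log axis) and the y axis the log2 difference, ENT+CTLA4 minus ENT. The 79 genes higher without overlap lie mostly at middle and high levels, and 21 of the 35 lower ones are weaker genes, at the left.

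Neutrophil and granulocytic genes formed the list with the highest median difference. Of 24 listed genes 19 were on the table and 16 were tested. Of these, 14 were higher and 2 lower in ENT+CTLA4, with a median of 0.91 (range −0.21 to 1.64), beside 344 of 621 higher (55.4%) and a median of 0.04 over all genes. Of the 16, 12 had no overlap between the groups, beside 12.7% of all genes, 10 had an unadjusted p under 0.05 and 0 were called. In the fit on the 8 samples alone 10 of the 16 were called, beside 7.41% of all genes. Ly6g, Cd177, Hp, Prtn3 and S100a9 were not on the table. The list shares Csf3r and Cxcr2 with the G-CSF list, Il1r2 with the interleukin 1 list and Fcgr4 with the Fc receptors.

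Among the receptors that guide and sustain neutrophils, Cxcr2, which binds CXC chemokines such as Cxcl1, Cxcl2 and Cxcl5, was 35, 37.2, 43.4 and 51.1 in ENT and 111, 97.9, 70.3 and 97.9 in ENT+CTLA4. Every ENT+CTLA4 sample lay above every ENT sample, and vehicle samples (57.9 to 89.9) overlapped ENT+CTLA4 but not ENT. The means differed 2.26-fold and the log2 difference was 1.15 ± 0.31 (SE, adjusted p = 0.109). Csf3r, the receptor for G-CSF, was 31.1, 43.4, 36.3 and 51.1 in ENT and 105, 85.4, 82.1 and 62.1 in ENT+CTLA4. These groups did not overlap either, with a difference of 1.03 ± 0.29 (adjusted p = 0.145). Fpr2, a receptor for formylated peptides and other inflammatory ligands, was 17.5, 24, 14.1 and 19.6 in ENT and 42.1, 30.2, 40.1 and 46.6 in ENT+CTLA4. It was a weaker gene, above the background limit in 2 ENT samples and all 4 of ENT+CTLA4, and its groups did not overlap (1.05 ± 0.39, adjusted p = 0.239).

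Clec5a and Fcgr4 had the smallest p-values of the well measured higher genes. Clec5a, a C-type lectin receptor of monocytes and neutrophils, was 62.2, 109, 62.5 and 93.7 in ENT and 187, 150, 197 and 172 in ENT+CTLA4. All ENT+CTLA4 samples were above all ENT samples and above the highest vehicle sample (131). The ratio of means was 2.15 and the difference 1.13 ± 0.28 (adjusted p = 0.104). Fcgr4, an activating Fc receptor for IgG of neutrophils and macrophages, was 51.5, 46.4, 52.4 and 66.5 in ENT and 104, 96.9, 115 and 94.8 in ENT+CTLA4. The groups lay well apart, with all vehicle samples (47.1 to 92.5) below ENT+CTLA4, a ratio of means of 1.89 and a difference of 0.92 ± 0.24 (adjusted p = 0.104). Trem1, which amplifies inflammatory signals in neutrophils and monocytes, was 74.8 to 95.8 in ENT and 127 to 165 in ENT+CTLA4, without overlap (0.70 ± 0.29, adjusted p = 0.251).

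S100a8, which with S100a9 forms the calprotectin released by neutrophils and monocytes, was 333, 336, 357 and 491 in ENT and 989, 961, 669 and 1555 in ENT+CTLA4. The groups did not overlap, ENT+CTLA4 replicate 6 was the highest, and all vehicle samples (422 to 586) lay below ENT+CTLA4. The ratio of means was 2.75 and the difference 1.41 ± 0.54 (adjusted p = 0.239). In the fit on the 8 samples alone its adjusted p was 0.00967. Il1r2, the decoy receptor that binds IL-1 without signalling, was 91.3, 111, 122 and 154 in ENT and 268, 269, 232 and 181 in ENT+CTLA4. These too did not overlap, with a difference of 0.99 ± 0.28 (adjusted p = 0.145).

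**Figure D2:**
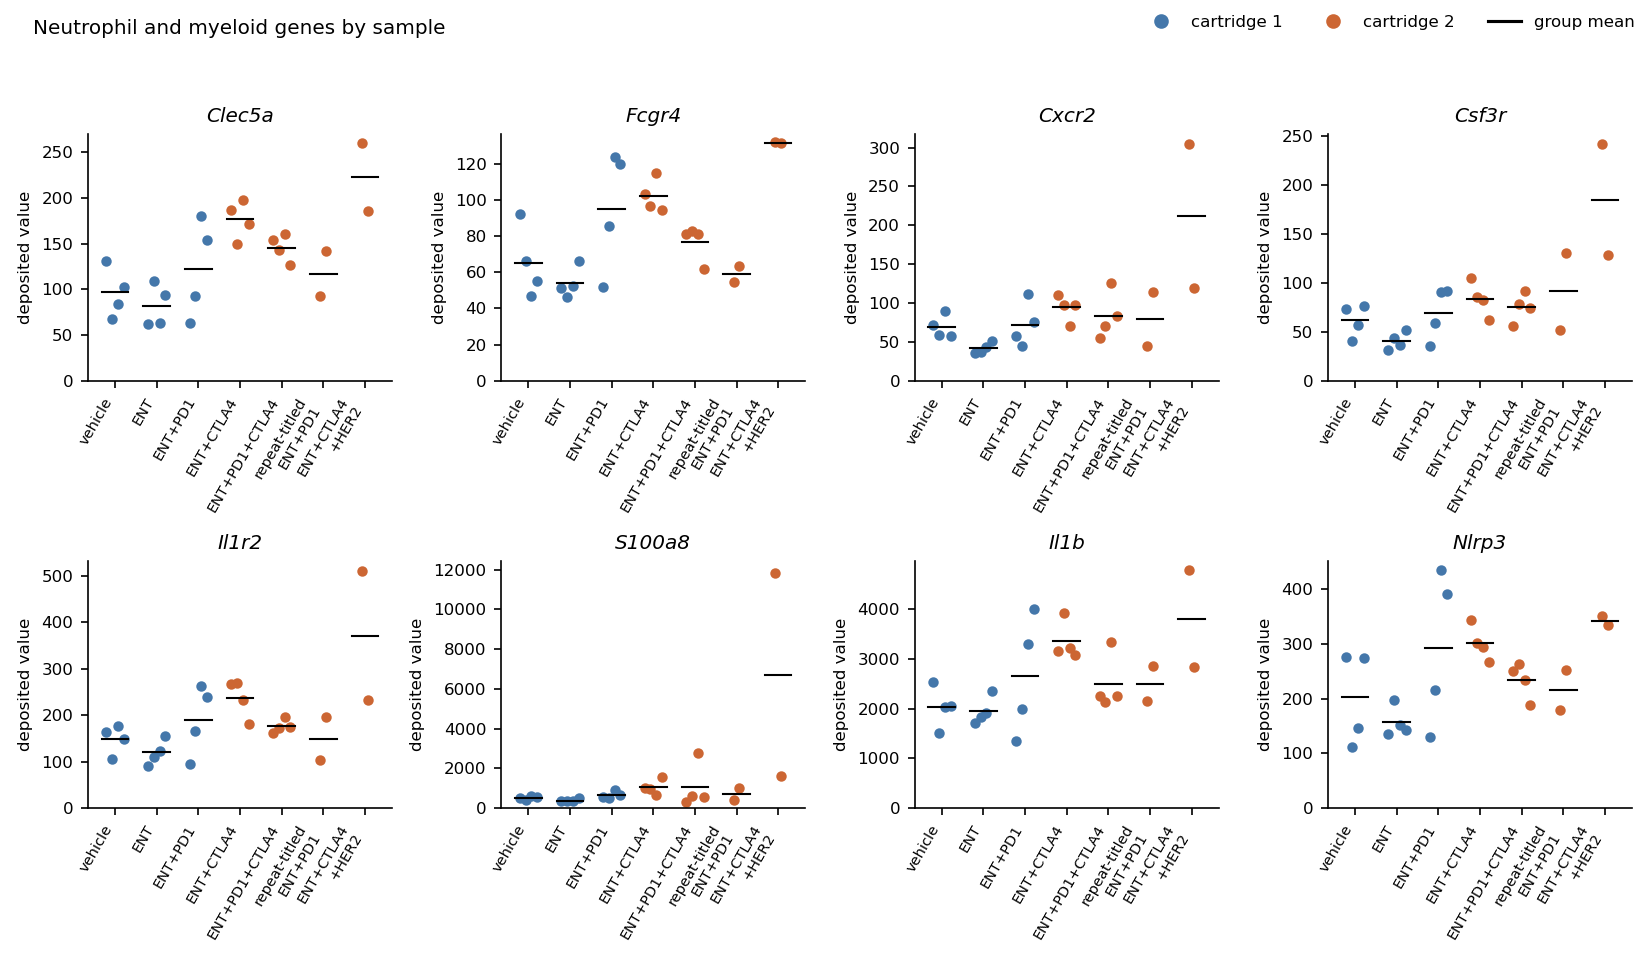
Deposited values (linear axes from 0) of 8 neutrophil and myeloid genes in every sample of 7 groups, with points coloured by cartridge and a line at each group mean. In each gene all 4 ENT+CTLA4 points lie above all 4 ENT points, and the repeat-titled pair, on the same cartridge as ENT+CTLA4 but without anti-CTLA-4 in its title, has 1 low and 1 high sample in Cxcr2, Csf3r, Il1r2 and S100a8.

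Itgam, Ncf4 and Ceacam1 of the list were also higher in every ENT+CTLA4 sample than in any ENT sample. Itgam, the integrin CD11b of myeloid cells, was 59.3 to 80.9 in ENT and 92.7 to 131 in ENT+CTLA4 without overlap (0.59 ± 0.34, adjusted p = 0.414). Ncf4, a cytosolic subunit of the phagocyte oxidase, was 231 to 245 in ENT and 338 to 444 in ENT+CTLA4 (0.71 ± 0.32, adjusted p = 0.295). The ENT samples agreed closely here, and the gene had an adjusted p of 0.00707 in the fit on the 8 samples alone. Ceacam1, an adhesion molecule of epithelium and leukocytes, was 37.5 to 70.6 in ENT and 70.7 to 136 in ENT+CTLA4, so the groups only just separated (0.68 ± 0.23, adjusted p = 0.219).

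Some members of the list were lower, weak or overlapped between the groups. Ltf, lactoferrin of secondary granules, had means of 21.9 ± 10.9 in ENT and 16.6 ± 4.72 in ENT+CTLA4 (SD, n = 4), and Mme, the peptidase neprilysin (CD10), of 396 ± 25.2 and 363 ± 65.9. These were the 2 members of the list that were lower, each by less than the larger of its 2 group SDs. Ltf turned to higher when negative controls were subtracted or the cartridge was a block, Mme when samples were scaled to the positive controls. Camp, the cathelicidin of secondary granules, averaged 5.95 ± 3.36 in ENT, where no sample was above the background limit, and 12 ± 7.19 in ENT+CTLA4, where 2 were. Its difference of 0.91 ± 0.94 (adjusted p = 0.677) was near the list median and within its SE. Lcn2, lipocalin-2, which granules hold and epithelium also makes, was 33440 to 38714 in ENT and 33608 to 53155 in ENT+CTLA4 (0.24 ± 0.22, adjusted p = 0.639). Oas3 and the list members Ltf, Camp, Lcn2, Trem1, Mme and Ncf4 and the chemokines Cxcl1 and Cxcl2 were named after their values were seen.

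Averaged over the 16 genes on the log2 scale, with the ENT mean set to 0, ENT samples lay between −0.13 and 0.15 and ENT+CTLA4 samples between 0.65 and 0.96 (0.80 ± 0.15, SD, n = 4). Vehicle samples lay between these, at 0.24 to 0.45. The repeat-titled pair, which shares the ENT+CTLA4 cartridge, was at −0.08 and 0.70: replicate 1 was inside the ENT range and replicate 2 inside the ENT+CTLA4 range. Over the other groups the score was 0.18 to 1.00 in ENT+PD1, 0.19 to 1.30 in ENT+PD1+CTLA4 and 1.21 to 2.15 in ENT+CTLA4+HER2.

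**Figure D3:**
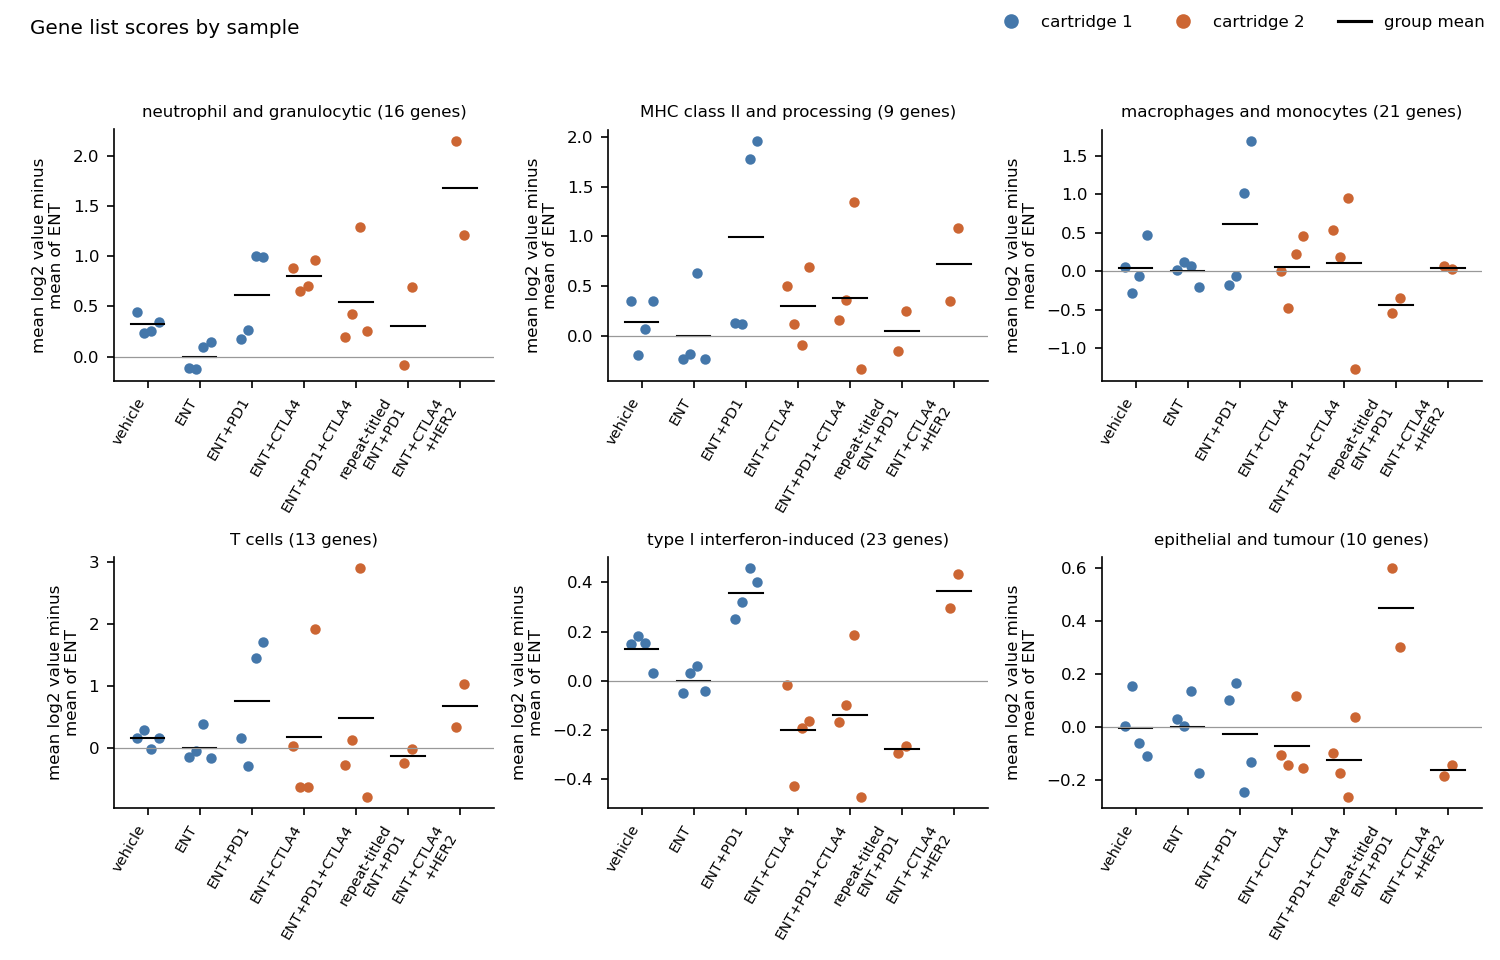
Mean log2 value of a gene list in each sample minus its mean in ENT, for 6 lists, with points coloured by cartridge and a line at each group mean. For the neutrophil list the 4 ENT+CTLA4 samples (0.65 to 0.96) lie above all ENT samples. For the T cell list only replicate 6 (1.91) of these 4 does, and samples of other groups reach up to 2.90.

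The promoters of S100a8 and Fcgr4 are shown because these genes of the list carry a motif of the PU.1 type in the 250 bases before their start. PU.1 is a transcription factor needed for myeloid development. The sequences come from RefSeq on build GRCm38.p6, S100a8 at chr3:90668821-90669070 on the plus strand and Fcgr4 at chr1:171018676-171018925 on the plus strand. Capitals mark GAGGAAGT read on the other strand as ACTTCCTC, and in Fcgr4 also a match to the core of the interferon-stimulated response element (a pair of GAAA runs with any 2 bases between them).
S100a8: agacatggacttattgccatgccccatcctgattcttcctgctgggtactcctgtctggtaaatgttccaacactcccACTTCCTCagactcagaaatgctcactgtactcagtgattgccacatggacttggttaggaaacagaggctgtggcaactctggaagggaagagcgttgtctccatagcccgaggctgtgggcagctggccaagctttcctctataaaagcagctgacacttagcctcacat
Fcgr4: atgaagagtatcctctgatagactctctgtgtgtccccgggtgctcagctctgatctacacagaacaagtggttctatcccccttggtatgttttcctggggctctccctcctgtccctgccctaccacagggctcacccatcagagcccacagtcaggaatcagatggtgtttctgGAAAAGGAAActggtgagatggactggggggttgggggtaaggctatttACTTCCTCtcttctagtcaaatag
The motif lay 172 to 165 bases before the start of S100a8 and 24 to 17 before that of Fcgr4. On either strand GAGGAAGT was in 802 of 32851 promoter windows of this length (2.44%), in 16 of the 454 tested genes with a window (3.52%) and in 2 of the 14 neutrophil list members with one. A match is a run of letters and does not show binding.

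Several genes of the interleukin 1 pathway were higher in every ENT+CTLA4 sample. Il1b, the inflammatory cytokine, was 1704, 1828, 1904 and 2357 in ENT and 3165, 3926, 3220 and 3086 in ENT+CTLA4. All ENT+CTLA4 samples exceeded all ENT and vehicle samples (vehicle 1517 to 2528), with a ratio of means of 1.72 and a difference of 0.79 ± 0.27 (adjusted p = 0.219). Nlrp3, the sensor of the inflammasome that matures IL-1 beta, was 136, 197, 152 and 142 in ENT and 343, 301, 294 and 266 in ENT+CTLA4. The groups were separate (0.94 ± 0.32, adjusted p = 0.217), although 2 vehicle samples reached the ENT+CTLA4 range. Irak2, a kinase downstream of the IL-1 and Toll-like receptors, was 99.8 to 121 in ENT and 148 to 162 in ENT+CTLA4 (0.47 ± 0.17, adjusted p = 0.226). Of the 13 genes of the interleukin 1 list 8 were higher, beside 55.4% of all genes. Of the same 13, 3 were higher without overlap, beside 12.7%. The list's median was 0.19, 0 members were called, and the share of higher members is near that of all genes.

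Several kinases and transcription factors with small replicate spread were also higher. Mapk14, the p38 alpha kinase, was 312, 309, 311 and 286 in ENT and 485, 410, 434 and 379 in ENT+CTLA4 (0.48 ± 0.14, adjusted p = 0.145). Stat6, which acts downstream of IL-4 and IL-13, was 274, 295, 290 and 279 in ENT and 400, 371, 345 and 388 in ENT+CTLA4 (0.40 ± 0.12, adjusted p = 0.145). Both genes were without overlap. For Stat6 the repeat-titled pair was at 373 and 387, inside the ENT+CTLA4 range, and for Mapk14 at 338 and 362, between the groups. Irf2, an interferon regulatory factor, had means of 160 ± 12.9 and 206 ± 19.3 (0.36 ± 0.12, adjusted p = 0.196), and the pair, at 225 and 244, was above all ENT samples. Ikbke, the kinase IKK epsilon of antiviral signalling, was 38.7 to 48.4 in ENT and 53.4 to 59.4 in ENT+CTLA4, with the pair at 57.9 and 69.7.

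Several macrophage and Fc receptor genes were higher in every ENT+CTLA4 sample. Cd14, the co-receptor for lipopolysaccharide, was 1388, 1297, 1267 and 1320 in ENT and 1737, 1804, 1892 and 2082 in ENT+CTLA4 (0.51 ± 0.22, adjusted p = 0.295). Cx3cr1, the fractalkine receptor of monocytes and macrophages, was 190 to 279 in ENT and 301 to 441 in ENT+CTLA4 (0.67 ± 0.27, adjusted p = 0.251). Ctss, the protease cathepsin S of antigen-presenting cells, was 1336 to 1587 and 1916 to 2190 (0.47 ± 0.29, adjusted p = 0.459). None of these overlapped. Cybb, the membrane subunit of the phagocyte oxidase, was 169 to 263 and 285 to 432, also without overlap (0.68 ± 0.34, adjusted p = 0.343). Of 21 macrophage and monocyte genes 13 were higher, a share near the 55.4% of all genes. Of the 21, 6 were higher without overlap, beside 12.7% of all genes, and 1 was lower without overlap, beside 5.64%. The median of the 21 was 0.34. Of 7 Fc receptor genes 6 were higher, with a median of 0.48, and 3 of the 7 were higher without overlap, beside the same 12.7%. Fcer1g, the signalling chain shared by activating Fc receptors, was 221 to 265 and 311 to 384 (0.48 ± 0.24, adjusted p = 0.343), and Syk, the kinase it recruits, was 71.9 to 112 and 110 to 179, where ENT replicate 3 reached into the ENT+CTLA4 range. No member of either list was called in the fit over 22 samples.

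Genes linked to myeloid suppression of T cells were mixed. Of 20 genes 14 were higher, and 8 of the 20 were higher without overlap, beside 12.7% of all genes. The median of the 20, which was 0.14, turned to −0.05 when samples were centred on their medians. Arg1, arginase 1, which depletes arginine, was 149 to 201 in ENT and 128 to 248 in ENT+CTLA4 (−0.20 ± 0.41, adjusted p = 0.904). Arg2, the mitochondrial arginase, was 16.2 to 43.4 and 36.5 to 75.9 (0.86 ± 0.32, adjusted p = 0.239), with overlap. Nos2, the inducible nitric oxide synthase, was 22.4 to 37.3 and 17.3 to 27.1 (−0.42 ± 0.21, adjusted p = 0.343), with overlap. Ligands of the neutrophil receptors differed in direction. Cxcl2 was 325 to 542 in ENT and 576 to 761 in ENT+CTLA4 without overlap (0.63 ± 0.30, adjusted p = 0.331), and its adjusted p was 0.0373 in the fit on the 8 samples alone. Csf3, which encodes G-CSF, averaged 111 ± 25.1 in ENT and 95.4 ± 28.1 in ENT+CTLA4, Cxcl1 averaged 2385 ± 497 and 1855 ± 554, and both differences change sign with the cartridge as a block. Cxcl5 averaged 73.9 ± 16 and 53.8 ± 15.8 (−0.47 ± 0.23, adjusted p = 0.332).

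Fewer well measured genes were lower, and by smaller amounts. Hmgb1, a chromatin protein that acts as an alarm signal outside cells, was 657, 646, 594 and 640 in ENT and 384, 509, 549 and 548 in ENT+CTLA4 (−0.36 ± 0.11, adjusted p = 0.196). The groups did not overlap, and the repeat-titled pair, at 402 and 360, lay below every ENT sample. Nubp1, an assembly factor for iron-sulphur clusters, averaged 127 ± 3.83 and 104 ± 15.1, Atf2, a stress-activated transcription factor, 246 ± 8.59 and 204 ± 18.5, and Vhl, the ubiquitin ligase subunit that marks HIF, 74.3 ± 8.43 and 58.8 ± 3.25. These 3 were also without overlap, and in each the pair lay below all ENT samples. Birc5 (survivin, of dividing cells), Mapk8 (the kinase JNK1), Rps6 (a ribosomal protein), Psmd7 (a proteasome subunit) and Bmi1 (a Polycomb protein) had differences of −0.52 to −0.20 with overlap. With the cartridge as a block Hmgb1 and Bmi1 turned to higher.

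Several weaker genes of the interferon and NK lists, though not all, were lower in ENT+CTLA4, in a range where the cartridges differ in background. Usp18, which removes ISG15 from proteins and dampens interferon receptor signalling, was 30.1, 24, 31.3 and 32.4 in ENT and 8.21, 14.6, 7.30 and 15.5 in ENT+CTLA4. It had the smallest p of all genes (−1.35 ± 0.28, adjusted p = 0.0747), and 2 of the 4 ENT+CTLA4 samples were within the background limit. It was the only gene called without the trend in the spread, and the only gene called when ENT+CTLA4 replicate 6 was left out. Ifit1, which binds foreign RNA, was 29.1, 21.7, 28.2 and 33.2 in ENT and 16.4, 14.6, 13.7 and 18.6 in ENT+CTLA4. It was above the background limit in all 8 samples and did not overlap (−0.78 ± 0.25, adjusted p = 0.196). Oas3, which makes the activator of RNase L, was 21.4, 16.3, 22.2 and 19.6 in ENT and 11.3, 10.4, 7.30 and 9.32 in ENT+CTLA4 (−0.98 ± 0.32, adjusted p = 0.196). The repeat-titled pair had low values on this cartridge as well: 17.3 and 9.96 for Usp18, 15.2 and 22.4 for Ifit1, and 10.2 and 6.22 for Oas3, so all were below every ENT sample but for 1 value of Ifit1. With negative controls subtracted the differences were −1.81 for Usp18, −0.85 for Ifit1 and −1.27 for Oas3. With the cartridge as a block they were 0.15, 0.28 and 0.35. The part of the cartridge in these differences was not tested.

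**Figure D4:**
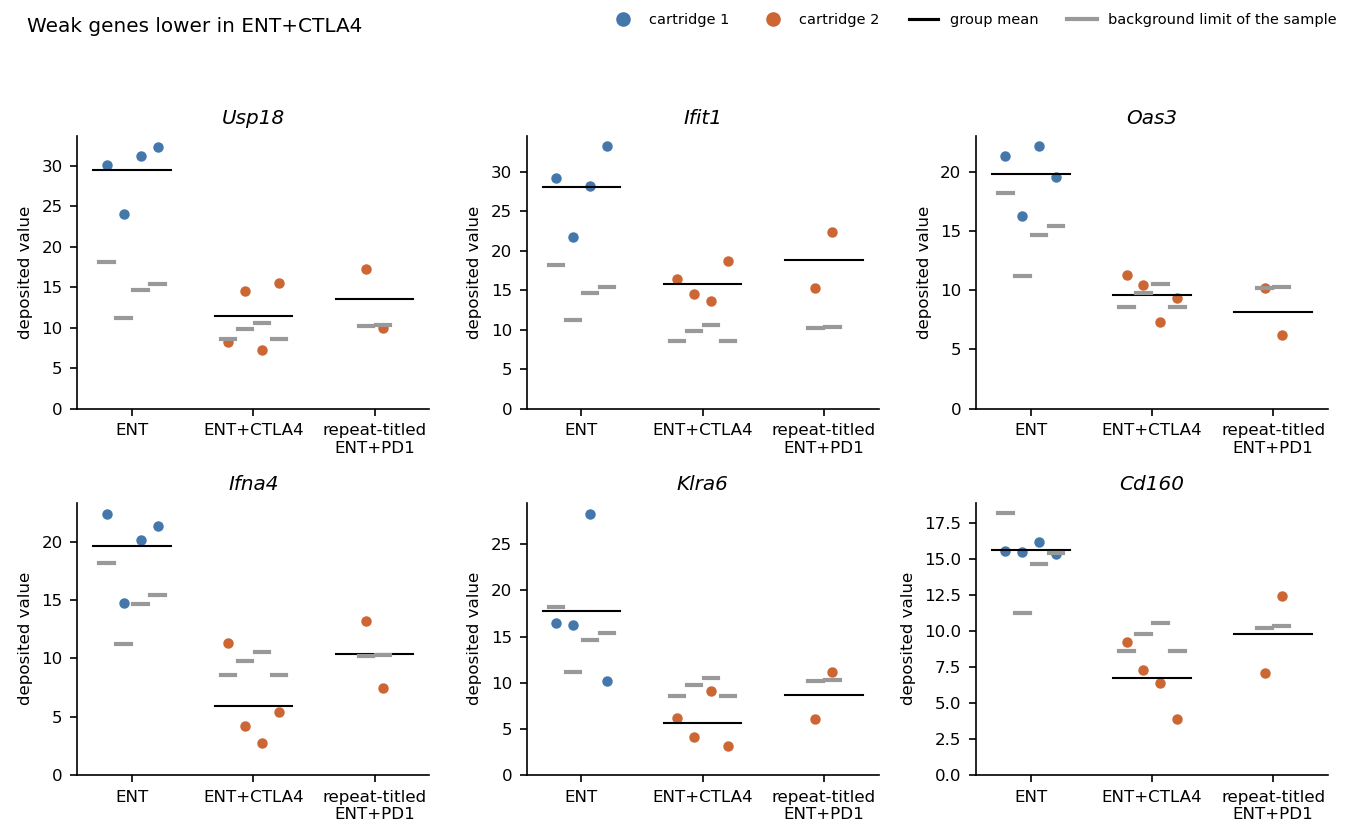
Deposited values (linear axes from 0) of 6 weaker genes in ENT, ENT+CTLA4 and the repeat-titled pair, with points coloured by cartridge, a black line at the group mean and a grey line at each sample's background limit. The limits are lower on cartridge 2. The mean of the pair, without anti-CTLA-4 in its title, lies nearer to the ENT+CTLA4 mean than to the ENT mean in all 6 genes.

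The interferon-induced list as a whole was split. Of 23 genes 9 were higher and 14 lower, with a median of −0.13 that turned to 0.01 with samples scaled to the positive controls. Of these, 2 were higher and 4 lower without overlap, beside 12.7% and 5.64% of all genes. Ifitm1, which blocks virus entry and is also found in myeloid cells, was 121, 138, 115 and 141 in ENT and 290, 220, 238 and 211 in ENT+CTLA4 (0.89 ± 0.28, adjusted p = 0.196), against the direction of Usp18. Isg15, a ubiquitin-like modifier, averaged 50.7 ± 7.43 and 45.4 ± 9.79, with overlap. Of the interferon genes, Ifna4 was 14.7 to 22.4 in ENT and 2.74 to 11.3 in ENT+CTLA4 (adjusted p = 0.104), and 3 of the 4 ENT+CTLA4 samples were within the background limit. Its size is therefore not well measured, and the same holds for Ifna1 (10.1 to 21.4 and 3.65 to 8.21), with 0 of 4 above it.

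The promoters of Ifit1 and Oas3, both lower in all ENT+CTLA4 samples, hold the interferon-response motif and are shown for that reason. They are RefSeq windows on GRCm38.p6, Ifit1 at chr19:34640639-34640888 on the plus strand and Oas3 at chr5:120777660-120777909 on the minus strand. Capitals mark the pair of GAAA runs with any 2 bases between them, on either strand.
Ifit1: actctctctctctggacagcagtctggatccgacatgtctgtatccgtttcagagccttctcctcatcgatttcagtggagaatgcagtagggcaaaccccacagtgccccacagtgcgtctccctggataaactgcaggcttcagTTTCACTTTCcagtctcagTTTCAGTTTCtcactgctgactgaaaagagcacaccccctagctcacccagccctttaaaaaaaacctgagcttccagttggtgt
Oas3: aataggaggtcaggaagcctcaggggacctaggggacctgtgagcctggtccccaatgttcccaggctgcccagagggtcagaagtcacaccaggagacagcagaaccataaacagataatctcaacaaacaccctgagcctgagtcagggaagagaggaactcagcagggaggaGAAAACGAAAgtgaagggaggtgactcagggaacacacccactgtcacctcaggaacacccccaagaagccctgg
The matches lay 104 to 95 and 85 to 76 bases before the start of Ifit1 and 75 to 66 before that of Oas3. The motif was in 978 of 32851 windows (2.98%), in 36 of 454 tested genes with a window (7.93%) and in 8 of 18 interferon-induced members with one (44.4%). Fcgr4, which was higher, also held it.

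Natural killer cell receptors were mostly near the background. Of 11 NK genes outside the Ly49 family 3 were higher and 8 lower (median −0.43), and of 7 Ly49 probes 1 was higher and 6 lower (median −0.75), and both medians change sign with the cartridge as a block. Cd160, a receptor of NK and T cells, was 15.6, 15.5, 16.1 and 15.3 in ENT and 9.23, 7.29, 6.39 and 3.88 in ENT+CTLA4 (adjusted p = 0.104). Only 2 ENT samples and 1 ENT+CTLA4 sample were above the background limit. Klra6, a Ly49 receptor, was 10.2 to 28.2 and 3.11 to 9.12 (adjusted p = 0.104), with 0 of 4 ENT+CTLA4 samples above it, and its probe may also bind RNA of near-identical Ly49 genes. Klrb1 was above the limit in 0 of 8 samples. The activating receptor Ncr1 averaged 13.9 ± 1.89 and 13.1 ± 3.47. Tigit, an inhibitory receptor of T and NK cells, was 17.8 to 26.4 in ENT and 6.16 to 15.6 in ENT+CTLA4 (−1.03 ± 0.37, adjusted p = 0.226), with the pair at 13.2 and 12.4.

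A few weaker genes ran the other way. Pou2f2, the B cell factor Oct-2, was 10.2 to 16.3 in ENT and 17.7 to 31.8 in ENT+CTLA4 (0.87 ± 0.31, adjusted p = 0.227), and Ebi3, a subunit shared by IL-27 and IL-35, was 16.5 to 46.4 and 48.4 to 61.6 (0.84 ± 0.33, adjusted p = 0.247). Neither overlapped, but Pou2f2 was above the background limit in only 1 ENT sample. Klrk1, the activating receptor NKG2D, was 5.11 to 11.1 and 9.12 to 20.2, with 0 ENT samples above the limit. The largest difference among the lower genes was that of Ccl24, a chemokine for eosinophils, at 12.6, 24.8, 58.5 and 15.3 in ENT and 3.08, 2.08, 6.39 and 8.54 in ENT+CTLA4 (adjusted p = 0.325). All ENT+CTLA4 values of Ccl24 were within the background limit, and so its size is not measured.

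No difference in the target of the antibody or its partners passed the threshold. Ctla4 was 19.4, 6.19, 40.3 and 32.4 in ENT and 17.4, 18.8, 18.2 and 30.3 in ENT+CTLA4. The ENT samples spanned the whole range of ENT+CTLA4, and the difference of 0.03 ± 0.74 (adjusted p = 0.995) changes sign with median centring, edgeR and DESeq2. Cd28, the activating counterpart, averaged 41.7 ± 6.00 and 27.2 ± 7.85 (−0.63 ± 0.33, adjusted p = 0.356). The ligand Cd80 averaged 46.7 ± 8.00 and 61.2 ± 8.15, and Cd86 105 ± 12 and 140 ± 27.0, with overlap in each. Icosl, the ligand of the related receptor ICOS, was 22.4 to 30.2 and 29.8 to 62.9. Foxp3, the factor of regulatory T cells, was above the background limit in 0 of 8 samples, and Ccr8, a chemokine receptor found on such cells, was 22.4 to 35.3 and 8.21 to 22.9 (−1.07 ± 0.32, adjusted p = 0.145).

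Several T cell genes were high in a single ENT+CTLA4 sample. Cd3e, a chain of the T cell receptor complex, was 8.74, 16.3, 23.2 and 16.2 in ENT and 12.3, 8.33, 4.56 and 66.8 in ENT+CTLA4. Cd4 was 8.07 to 11.1 in ENT and 7.18, 4.17, 2.74 and 34.2, and Icos 6.82 to 35.3 and 14.4, 9.37, 4.56 and 110. In each the last value is replicate 6, and the other 3 ENT+CTLA4 samples lay within or below the ENT range. Cd8a, a CD8 chain that was too weak to be tested, was above the background limit only in replicate 6 (27.2). Ccl5, a chemokine of activated T cells, was 4.86 to 16.1 in ENT and 38.0, 13.5, 12.8 and 164 in ENT+CTLA4 (1.82 ± 0.85, adjusted p = 0.321). The T cell score was 0.03, −0.63, −0.63 and 1.91 in ENT+CTLA4 replicates 1, 2, 5 and 6, and the B cell score 0.35, −0.40, −0.05 and 1.26. Other groups also held samples with T cell scores above all ENT samples. These were ENT+PD1 replicates 5 (1.44) and 6 (1.71), ENT+PD1+CTLA4 replicate 1 (2.90) and ENT+CTLA4+HER2 replicate 2 (1.03). The neutrophil score of ENT+CTLA4 replicate 6 (0.96) lay near that of its replicate 1 (0.88), so replicate 6 did not stand apart there. The effector genes Gzmb and Prf1 (untested) were above the background limit in 1 of 8 samples each, and Ifng was 7.77 to 21.3 in ENT and 1.55 to 10.3 in ENT+CTLA4, with 2 of 8 above it.

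MHC class II genes varied within each group. H2-Ab1, a chain of MHC class II, was 1188, 1326, 2829 and 1143 in ENT and 3215, 2176, 1741 and 2437 in ENT+CTLA4. ENT replicate 3 overlapped with ENT+CTLA4, and the difference of 0.64 ± 0.54 (adjusted p = 0.613) was near its SE. Of 9 genes of the MHC class II list 8 were higher, with a median of 0.41, and 1 was without overlap, beside 12.7% of all genes. Itgax, the integrin CD11c of dendritic cells and macrophages, was 15.6 to 34.3 in ENT and 39.2 to 46.2 in ENT+CTLA4 without overlap (0.82 ± 0.36, adjusted p = 0.295). Cd274, which encodes PD-L1, was 21.3 to 52.4 and 39.2 to 70.8, with overlap. The interferon-gamma-induced chemokines Cxcl9 (11.7 ± 7.99 and 13.3 ± 13.9) and Cxcl10 (25.3 ± 11.1 and 29.9 ± 10.0) overlapped throughout.

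**Figure D5:**
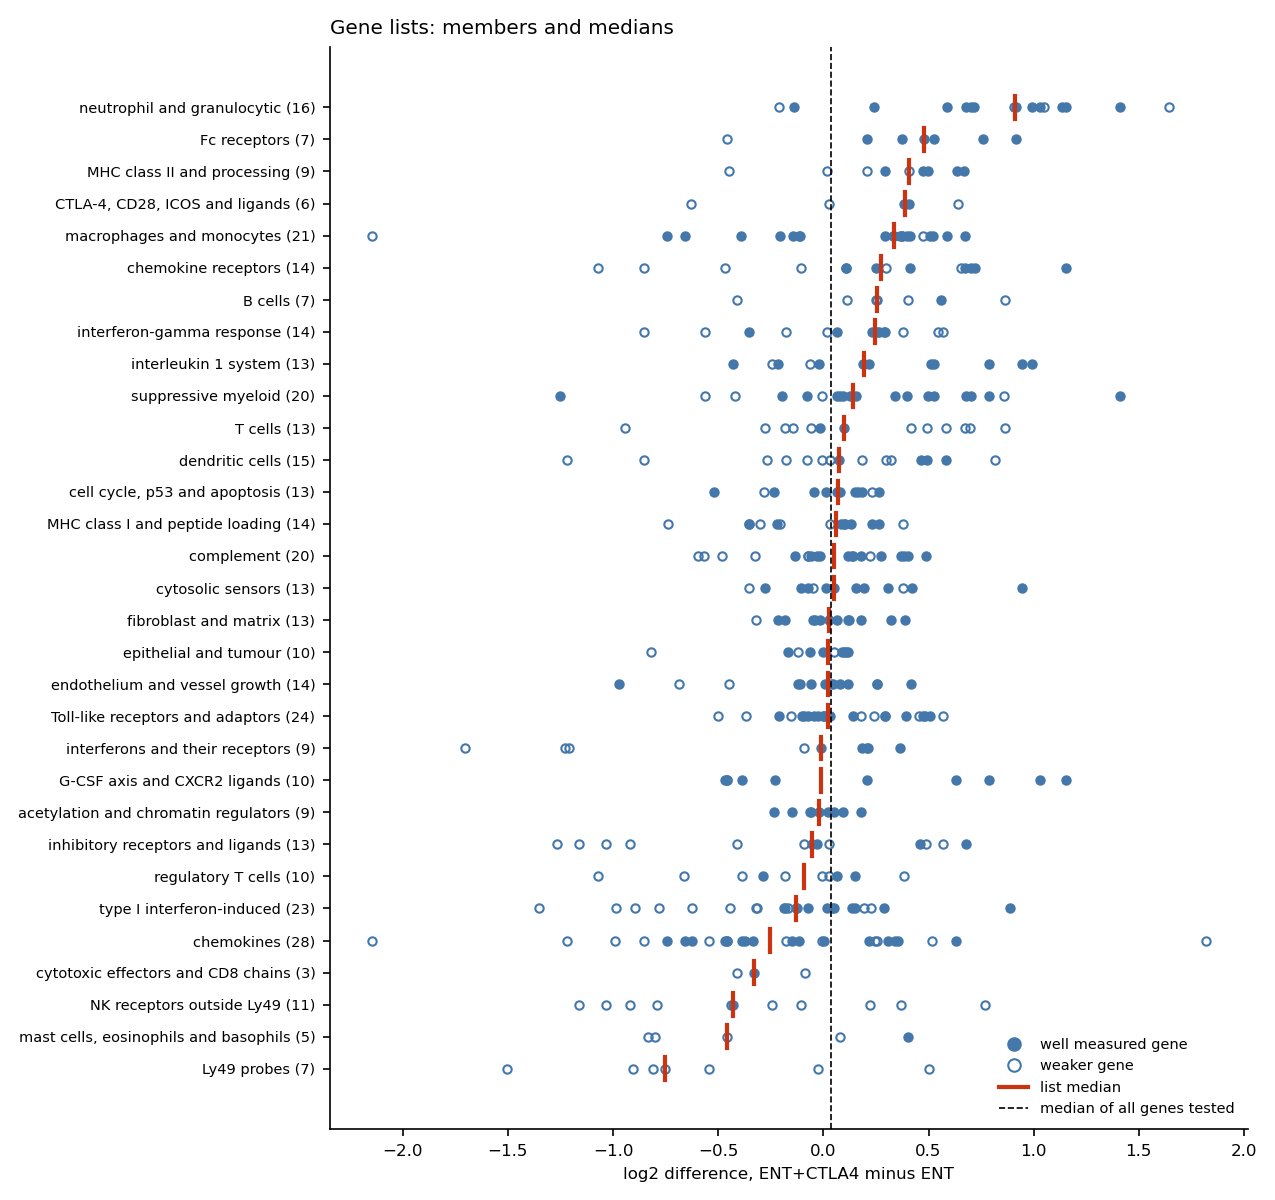
Log2 differences (ENT+CTLA4 minus ENT, x axis) of the tested members of 31 gene lists, with filled points for well measured genes, open points for weaker ones, a red bar at each list median and a dashed line at the median of all genes (0.04). The neutrophil list has the highest median (0.91), and the Ly49 probes (−0.75), all of whose points are open, the lowest.

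Tumour and stromal genes were near the median of all genes. The epithelial and tumour list had 5 of 10 genes higher (median 0.02), the fibroblast list 7 of 13 (0.03), the endothelial list 8 of 14 (0.02) and the acetylation and chromatin list 4 of 9 (−0.02), and the sign of each changes with the scaling. Epcam averaged 5823 ± 99.7 and 5848 ± 782. Erbb2, the receptor HER2, averaged 425 ± 42.1 and 467 ± 98.6, and Hdac3, a deacetylase that entinostat inhibits, 440 ± 33.7 and 435 ± 57.0. Stat3 averaged 1462 ± 52.5 and 1626 ± 67.7 without overlap (0.15 ± 0.09, adjusted p = 0.401), and its sign turned with median centring and with the cartridge as a block.

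The same antibody was also added on top of entinostat and anti-PD-1, in samples that this comparison does not share. ENT+PD1 lay on the cartridge of ENT and ENT+PD1+CTLA4 on that of ENT+CTLA4, so both additions cross the same cartridges. In ENT+PD1+CTLA4 against ENT+PD1, 20 of 621 genes (3.22%) were called, all lower, and Usp18 (−1.39 ± 0.28, adjusted p = 0.0108), Cd160 (−1.46 ± 0.30, adjusted p = 0.0108), Ifit1 (−1.15 ± 0.25, adjusted p = 0.0153), Oas3, Klrb1, Tigit and Nos2 were among them. The call count fell to 1 (0.161%) with edgeR and to 0 with DESeq2 and with median centring. Over all 621 genes 121 (19.5%) were higher there, with a median of −0.25. Of the 16 neutrophil genes 5 were higher there, with a median of −0.07. S100a8 differed by 0.22 ± 0.54 (adjusted p = 0.836), Cxcr2 by 0.22 ± 0.31 (adjusted p = 0.717) and Fcgr4 by −0.24 ± 0.24 (adjusted p = 0.636). Of the 79 genes higher without overlap in ENT+CTLA4, 0 were so with anti-PD-1, where 3 genes (0.483%) were. Of the 35 lower ones 11 (31.4%) were so with anti-PD-1, which is 22.9% of the 48 lower there (7.73% of all). The difference between the 2 additions was tested as an interaction, in which an additive effect of cartridge on the log2 scale cancels. No gene was called (0%) by limma, edgeR or DESeq2, and 42 (6.76%) had an unadjusted p under 0.05, 38 of them negative (6.12%). Over all genes the interaction had a median of −0.33 and was positive in 117 of 621 (18.8%), so most genes were shifted the same way. ENT+PD1, the baseline of the second addition, was itself uneven. Its mean log2 value over all genes, minus that of ENT, was 0.10, 0.03, 0.64 and 0.77 in replicates 1, 2, 5 and 6. In ENT+PD1+CTLA4 this score ran from −0.45 to 0.52. How far single samples set the shift was not tested. The interaction was −1.16 for Fcgr4 (unadjusted p = 0.00266, adjusted p above the threshold) and −0.84 for Irak2 (unadjusted p = 0.00212).

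Where the repeat-titled pair stood shows how far values on the same cartridge, without anti-CTLA-4 in the title, reached those of ENT+CTLA4. For the 79 higher genes the pair's mean lay at a median position of 0.338 on a scale from the ENT mean (0) to the ENT+CTLA4 mean (1). In 37 of the 79 both samples of the pair were below all ENT+CTLA4 samples, and in 24 both were above all ENT samples. The samples differed: replicate 1 was below all ENT+CTLA4 samples in 65 genes and replicate 2 in 37. For the 35 lower genes the median position was 0.773, and in 23 both samples of the pair were below all ENT samples. Against vehicle, on the cartridge of ENT, all ENT+CTLA4 samples were above all vehicle samples in 25 of the 79 and below all in 18 of the 35. The 79 and 35 genes were picked because ENT+CTLA4 lay apart from ENT. The same counts over all genes tested are not given, so these counts have no background share beside them. A fit with the cartridge as a block rests on this pair joined to the 4 ENT+PD1 samples, whose replicates 5 and 6 were high over all genes. It gave a neutrophil list median of 1.20 beside a median of all genes of 0.44, and 0 called genes. The neutrophil list was no longer the highest there. The MHC class II list (1.54), the Fc receptors (1.36) and the list of CTLA-4, CD28, ICOS and ligands (1.26) lay above it. Of 36 genes given here that were lower in ENT+CTLA4, 20 turned to higher in that fit.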

How the data were processed

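RNA of 24 tumour samples was counted on an nCounter instrument with a PanCancer Immune panel, per the series title (the labelling text gives a myeloid one). The deposited signal values are counts times a factor for each sample, with values under 1 raised to 1: dividing by that factor gave whole numbers for 100% of values above 1 (tolerance 0.05). How they were normalized is not given in the sources used here; limma is the program that the submitters' processing notes mention. Control probes hold raw counts per the file headers. Recovered totals were 226863 to 483412 counts per sample, and precision is limited for weak genes.

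The 621 of 770 genes that reached 20 in 4 or more samples (149 did not) were tested on log2(value + 1), a scale that understates the change of weak genes. The test was limma 3.58.1 (lmFit, eBayes with trend, R 4.3.3) over 22 samples in 6 groups, without the repeat-titled pair. Calls needed p below 0.05 after Benjamini-Hochberg adjustment over all 621 genes, and every adjusted p printed is of this kind. edgeR 4.0.16 and DESeq2 1.42.0 on recovered counts, other pseudocounts, filters, scalings, blocks and left-out samples were alternatives, and those on the 8 samples alone with a further change were chosen after seeing the data. The limma and edgeR steps were tested on simulated data.

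Named genes were the 12 higher and 12 lower well measured genes and the 6 and 6 weaker ones with the smallest p, the first 3 of each of 31 lists, and a fixed set of checkpoint, T cell, myeloid and tumour genes. Some genes that the rule selects are left out for brevity, and a few genes are not reported here. Members, lists and this rule were chosen with earlier results of these data known. RefSeq promoter windows (GRCm38.p6) were matched by the RefSeq transcript of the probe, or else by symbol, for 454 of the 621 genes.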

Additional observations from a re-analysis of the deposited data

Results flagged for a closer look

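In 21 of 176 groups of 4 samples checked, a single sample lay so far from the other 3 that its gap to the nearest, as a share of the group's range, passed Dixon's 95% critical value. Chance alone gives about 1 in 20 such groups, and the genes are not independent of each other.

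ENT+CTLA4 replicate 6 was the highest sample in 7 genes, most of them of lymphocytes. It was at 66.8 for Cd3e (next 12.3), 34.2 for Cd4 (next 7.18), 110 for Icos (next 14.4) and 52.0 for Cd6 (next 10.3). It was at 216 for the leukocyte gene Cd37 (next 63.6), 164 for Ccl5 (next 38.0) and 30.3 for Ctla4 (next 18.8). ENT+CTLA4 replicate 1 was the highest for Ceacam1 (136; next 81.2) and Csf3 (137; next 82.3) and the lowest for Ikbke (53.4; next 59.0). Replicate 2 was the highest for Il1b (3926; next 3220), and replicate 5 for Mapk8 (154; next 105) and Arg1 (248; next 144).

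In ENT, replicate 3 was the highest for H2-Ab1 (2829; next 1326), Icos (35.3; next 10.1), Vhl (86.7; next 71.2) and Epcam (5971; next 5795). Replicate 4 was the highest for S100a8 (491; next 357) and the lowest for Mapk14 (286; next 309). Replicate 2 was the lowest for Ccr8 (22.4; next 34.0) and Tigit (17.8; next 26.2). In S100a8, Mapk14 and Vhl the groups did not overlap despite these samples. The causes of these samples' positions were not tested.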

How the results depend on the processing

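For ENT+CTLA4 against ENT, 0 genes were called in the fit over 22 samples and under edgeR, a pseudocount of 10, no filter, a filter at 50, a floor of 20, 4 rescalings of the values, the cartridge block and the replicate block. DESeq2 called 15, the fit without the trend 1, and leaving out a sample gave 0 to 1 (1 without ENT+CTLA4 replicate 6). The fit on the 8 samples alone called 46. With a further change it called 17 with median rescaling, 19 with quantile normalization, 45 with edgeR and 44 with negative controls subtracted. With a sample left out it called 10, 30, 31 and 19 (without ENT replicates 1, 2, 3 and 4) and 33, 52, 17 and 30 (without ENT+CTLA4 replicates 1, 2, 5 and 6). A sample left out there leaves 3 against 4. For ENT+PD1+CTLA4 against ENT+PD1, the 20 calls became 1 under edgeR, 0 under DESeq2, 1 with the filter at 50, 7 with the floor of 20, 0 with median rescaling, 1 with quantile normalization, 2 with positive control scaling, 2 with negative controls subtracted and 0 with the cartridge block. They ranged from 14 to 27 when a sample was left out. The interaction had 0 calls under every alternative run.

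Of the 79 genes higher without overlap, 40 were left in number with median rescaling, and leaving out a sample gave 85 to 114. The 35 lower became 70 with median rescaling, 53 with quantile normalization, 16 with positive control scaling and 14 with the filter at 50, and 37 to 60 without a sample (60 without ENT replicate 2, 54 and 56 without ENT+CTLA4 replicates 1 and 6). The count models, pseudocounts, floor, trend and blocks give no value for these counts.

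The neutrophil list median of 0.91 was 0.74 with a pseudocount of 10, 0.72 with median rescaling, 0.75 with quantile normalization, 1.06 with positive control scaling, 1.06 with negative controls subtracted and 1.20 with the cartridge block. In the block fit it was no longer the highest of the lists, and lay below that of MHC class II (1.54). It was 0.72, 0.75 and 1.06 with median rescaling, quantile normalization and subtraction on the 8 samples alone, and 0.80 to 1.05 without a sample.

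With the cartridge as a block, tied through the repeat-titled pair, 20 of 36 named lower genes turned to higher and 3 higher ones to lower. Of the genes that turned, 8 had an unadjusted p under 0.05 in the fit over 22 samples, all lower there. They were Hmgb1 (0.092 with the block), Usp18 (0.15), Cd160 (0.15), Ifit1 (0.28), Klrb1 (0.28), Tigit (0.38), Ccl24 (0.48) and Oas3 (0.35). Other lower genes with such a p stayed lower with the block, among them Ifna4 (−0.99), Ccr8 (−0.30) and Klra6 (−0.28). The median of all genes was then 0.44, and the cause was not tested. That fit joined the pair to the 4 ENT+PD1 samples. The mean log2 value over all genes, minus that of ENT, was −0.18 and −0.06 in the pair. In ENT+PD1 replicates 1, 2, 5 and 6 it was 0.10, 0.03, 0.64 and 0.77. Over 83 named genes and all settings, 2667 of 2783 gene and setting pairs kept their direction and 116 did not, 93 of the latter in settings other than the cartridge block. These 116 came from 30 genes, and 8 pairs were of genes with an unadjusted p under 0.05.

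The groups share only replicate numbers 1 and 2, whose deviations correlated at −0.100 and −0.260 across genes, so the numbers do not pair the samples. With the replicate block 0 genes were called, the neutrophil median was 0.89, and 14 genes were called in ENT+PD1+CTLA4 against ENT+PD1. For weak genes the background is the limit: Klra6, Ifna1 and Klrb1 were within it in all 4 ENT+CTLA4 samples.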
